A study of Saccharomyces cerevisiae with 24 samples.

Results

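The mitotic exit network is the signalling pathway that ends mitosis in the budding yeast Saccharomyces cerevisiae, and DBF2 encodes 1 of its kinases. The 10 genes described here were chosen by name, as the rows for DBF2 (YGR092W), DBF20 (YPR111W), MOB1 (YIL106W), CDC15 (YAR019C), TEM1 (YML064C), CDC5 (YMR001C), CDC14 (YFR028C), LTE1 (YAL024C), BFA1 (YJR053W) and BUB2 (YMR055C) among the 7126 genes of each expression table. The series measured RNA by sequencing in 24 samples, with 3 biological replicates in each of 8 groups, from cells growing asynchronously in YM-1, a rich medium, with 2% dextrose. It asked which genes depend on Yhp1 and Yox1, homeodomain repressors that act together with Mcm1 at promoters of cell cycle genes. The phosphomutant set compared yhp1-13A yox1-9A, yhp1-13A and yox1-9A, in which Cdk1 phosphorylation sites of these proteins are mutated, with a wild type collected alongside them (wild type A). The deletion set compared yhp1Δ yox1Δ, yhp1Δ and yox1Δ with a second collection of the same wild type strain (wild type B).

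All strains were MATa and carried leu2Δ0 and ura3Δ0, with a his3 allele that the labels give as his3Δ0 and the strain table of the study as his3Δ1. The yhp1Δ strain carried lys2Δ0, and all others carried met15Δ0. The phosphomutant alleles were marked and tagged, as yhp1-13A-13MYC-LEU2 and yox1-9A-3V5-KanMx. The deletions were yhp1Δ::LEU2 in yhp1Δ, yox1Δ::KanMX in yox1Δ, and yox1Δ::NatMX with yhp1Δ::LEU2 in the double deletion. The wild type in both sets was not an untagged strain, but had YOX1-3V5-KanMx and YHP1-13MYC-LEU2. Each single mutant carried only the marker of its own allele, so that a tag on the other repressor is present in wild type and not in the single mutants. Each genotype was represented by 1 strain.

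Within the network, the GTPase Tem1 is the switch at the top. Bfa1 and Bub2 form the GTPase-activating complex that holds Tem1 off, Lte1 in the bud favours its activation, and the polo kinase Cdc5 inhibits Bfa1-Bub2. Active Tem1 acts through the kinase Cdc15, which switches on the kinase Dbf2 bound to its activating subunit Mob1, and Dbf20 is a close paralog of Dbf2. The pathway ends with the phosphatase Cdc14, which leaves the nucleolus and reverses phosphorylation by the mitotic cyclin-dependent kinase. Transcription of several of these genes is periodic, and because the cultures were asynchronous, fewer cells in a phase and less RNA per cell cannot be told apart in any value below.

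The DBF2 promoter is shown first because DBF2 was the only 1 of the 10 genes whose RNA differed between strains at the threshold used here. The 500 bases before each start codon were searched on both strands for TAATTA, a homeodomain core site, for GTAAACA, a forkhead site, and for the Mcm1 P box core, with sequence and annotation from RefSeq for the R64 genome. The stretches below are written 5′ to 3′ toward the gene, with the matches in capitals, and no annotated RefSeq gene overlaps any of them. They lie at chrVII:667929-667988 (plus strand) for DBF2, chrXVI:747041-747100 and chrXVI:747126-747185 (plus strand) for DBF20 and chrIX:166205-166264 (plus strand) for MOB1.
DBF2: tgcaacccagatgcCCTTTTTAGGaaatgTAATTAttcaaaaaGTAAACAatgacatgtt
DBF20 distal: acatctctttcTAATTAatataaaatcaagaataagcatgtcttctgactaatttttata
DBF20 proximal: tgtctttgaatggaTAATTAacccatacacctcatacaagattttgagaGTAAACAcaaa
MOB1: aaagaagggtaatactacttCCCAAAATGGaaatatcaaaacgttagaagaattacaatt

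In the DBF2 promoter the P box core began 246 bases before the start codon, TAATTA 231 bases and GTAAACA 217 bases before it. Gaps of 5 and 8 bases separated the 3 motifs, which did not overlap. Of 6005 promoters of protein-coding genes, 24.9% held TAATTA, 10.3% held GTAAACA, 10% held the P box core, and 7 (0.117%) held all 3. When the arrangement seen at DBF2 was then counted, with the P box core at most 20 bases from TAATTA and TAATTA at most 20 bases from GTAAACA, 1 of the 6005 promoters held it, that of DBF2. Since the arrangement was taken from DBF2, its own promoter had to be counted. The P box core lay at most 20 bases from TAATTA in 19 promoters (0.316%). DBF20 held TAATTA at 254 and 166 bases and GTAAACA at 131 bases before its start codon, but no P box core. MOB1 held a P box core at 190 bases and neither of the other motifs. GTAAACA alone was present at TEM1 (153 bases), CDC14 (120 bases) and LTE1 (137 bases), which makes 5 of the 10 promoters with this motif. None of the 3 motifs was found at CDC15, CDC5, BFA1 or BUB2. A match describes these letters in this window only, and binding was not measured.

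Expression is given as TPM, a transcript abundance scaled for gene length and sequencing depth within a sample, so that the values of all genes in a sample add up to the same total. All 10 genes passed the minimum of a mean of 1 TPM over the 12 samples of each set. The libraries held 17.0 to 18.9 M fragments, so that the rarest of the 10 RNAs, BFA1, was still counted by 173 to 379 fragments per sample. Replicates of a group correlated across genes with r of 0.968 or more. In the deletion set the targeted genes matched the labels, with YHP1 at 0 to 0.0424 TPM in yhp1Δ yox1Δ and yhp1Δ, against 30.8 to 37.2 TPM in wild type B. YOX1 lay at 0.563 to 1.81 TPM in yhp1Δ yox1Δ and yox1Δ, against 85.9 to 108 TPM in wild type B. YOX1 was also lower in yhp1Δ, where it carries no tag, at 38.6 to 48.7 TPM (adjusted p = 0.00361). In yhp1-13A, where it carries no tag either, it was at 34.0 to 38.4 TPM, against 67.5 to 103 TPM in wild type A, and was not called (log2 fold change -1.16, adjusted p = 0.149). The phosphomutant alleles cannot be recognised by level. The 6 markers of the MATa cell type summed to 6942 TPM or more in every sample and the 4 of MATα to 42.4 TPM or less, with none of the 4 at 0 throughout. The MATa sums were 7148 to 8361 TPM in yhp1-13A yox1-9A, 7715 to 10284 TPM for yhp1-13A and 6942 to 8290 TPM for yox1-9A, against 10345 to 10870 TPM in wild type A, and their part in the values below was not tested.

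In the yhp1Δ yox1Δ strain, DBF2 RNA was at about double the wild type level, and no other gene of the network passed the test against wild type. DBF2 (chromosome VII, 668189 to 669907, 1 coding exon) was at 59.7, 56.9 and 56.1 TPM in yhp1Δ yox1Δ, against 31.2, 27.1 and 29.0 TPM in wild type B. In the single deletions it was at 30.6, 25.8 and 30.5 TPM in yhp1Δ and at 41.3, 35.9 and 41.9 TPM in yox1Δ. The 3 double deletion samples lay above every other sample of the set, the yox1Δ samples lay above all wild type B samples, and yhp1Δ and wild type B overlapped. Each value rests on 944 to 2277 fragments in this set.

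The log2 fold change of DBF2 in yhp1Δ yox1Δ was 0.96 (SE 0.10), a 1.95-fold rise on the log2(TPM + 1) scale, with an adjusted p of 0.000673 by limma. This ranked 7th by p among the 6311 genes tested, of which 0.634% were called at an adjusted p below 0.1. With the 6 samples left out in turn the adjusted p was at most 0.00669, and over the other settings it was at most 0.00476. Against yhp1Δ, the double deletion gave a log2 fold change of 0.97 (SE 0.10, adjusted p = 0.000664), where 0.539% of genes were called. Against yox1Δ it gave 0.53 (SE 0.10, adjusted p = 0.0602), where 0.57% of genes were called. This last call was lost when any 1 of the 6 samples compared was left out, with adjusted p between 0.113 and 0.314 and log2 fold changes between 0.46 and 0.57. Deviations from the mean of the set fell with the GC content of genes in all yhp1Δ samples (slopes -0.22 to -1.09). They rose in all yhp1Δ yox1Δ samples (slopes 0.067 to 0.31). The direction of this slope and the strain therefore cannot be told apart between the double deletion and yhp1Δ.

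In the single deletions DBF2 did not pass the test. In yox1Δ its log2 fold change was 0.43 (95% interval 0.21 to 0.66, adjusted p = 0.205), where 0.364% of genes were called. It passed there after median-of-ratios scaling (adjusted p = 0.0751) and with a term for the first residual component, the main axis of variation among replicates (adjusted p = 0.0631). The component term called 0.57% of all genes in yox1Δ, and the share under median-of-ratios scaling is not given here. In yhp1Δ the log2 fold change was -0.01 (95% interval -0.23 to 0.22, adjusted p = 1), where 0.127% of genes were called. The interaction, which is the part of the double deletion not accounted for by the sum of both single deletions on the log2 scale, was 0.54 for DBF2 (SE 0.15). Its unadjusted p was 0.00326 and its adjusted p 0.598, so it was not called, and 0.19% of genes were called for this term.

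**Figure D1:**
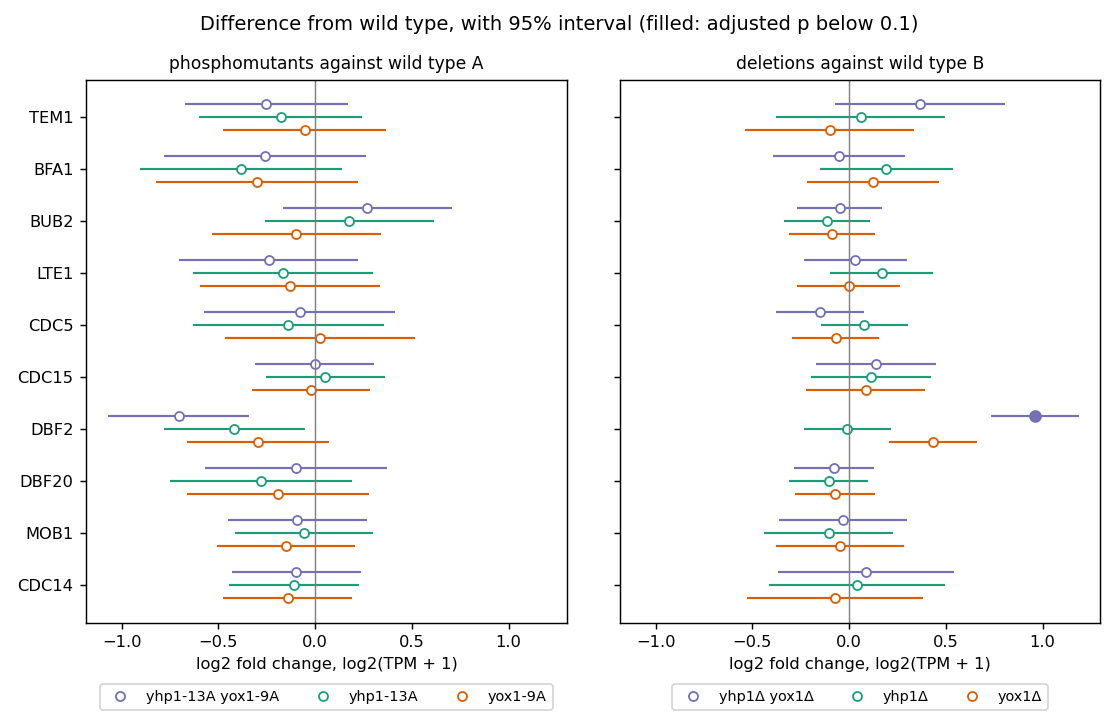
Log2 fold change on log2(TPM + 1) of each of the 10 genes (rows) against the wild type of its set, for 3 phosphomutants (left) and 3 deletions (right), from 3 samples per group; bars are 95% intervals, and a filled point marks an adjusted p below 0.1. The only filled point is DBF2 in yhp1Δ yox1Δ at 0.96, and its values lie at -0.71 for the double phosphomutant, -0.42 for yhp1-13A and -0.30 for yox1-9A.

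In the phosphomutants, DBF2 RNA was lower than in wild type A in all 9 samples, and none of the differences passed the test. It was at 24.7, 18.4 and 16.7 TPM in yhp1-13A yox1-9A, against 36.2, 31.6 and 30.4 TPM in wild type A. The single mutants were at 27.6, 23.8 and 21.5 TPM for yhp1-13A and at 30.1, 26.4 and 23.2 TPM for yox1-9A. Each mutant group lay below all wild type A samples, yox1-9A narrowly so, and the 3 mutant groups overlapped each other. The log2 fold change was -0.71 in yhp1-13A yox1-9A (SE 0.17, adjusted p = 0.433), where 0.0158% of 6316 genes were called. It was -0.42 in yhp1-13A (SE 0.17, adjusted p = 0.908), where 0% were called. It was -0.30 in yox1-9A (SE 0.17, adjusted p = 0.999), where 0.285% were called. These values include a shift of all genes, whose median log2 fold change was -0.12 in yhp1-13A yox1-9A, -0.11 for yhp1-13A and -0.08 for yox1-9A, and at most 0.01 in size after median-of-ratios scaling. DBF2 stayed negative under that scaling and under every other setting in all 3 phosphomutants.

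The phosphomutant libraries were also divided by base composition. Deviations from the mean of the set fell with the GC content of genes in 6 samples, which were the first replicate of all 4 groups and the second replicate of yox1-9A and wild type A. They rose in the remaining 6 samples. Within the falling samples, DBF2 was lower in yhp1-13A yox1-9A by a log2 difference of -0.44 (1 sample against 2), and within the rising samples by -0.76 (2 against 1). For yhp1-13A these differences were -0.29 (1 against 2) and -0.41 (2 against 1), and for yox1-9A they were -0.25 (2 against 2) and -0.38 (1 against 1). With the GC slope of each sample in the fit, DBF2 passed in yhp1-13A yox1-9A at -0.61 (SE 0.12, adjusted p = 0.0807). With a term for the first residual component it passed at -0.61 (SE 0.10, adjusted p = 0.0607). The component term called 0.412% of all genes, against 0.0158% without it, and the share with the GC slope is not given here. The part of base composition and of that component in the result without these terms was not tested further.

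Between phosphomutants, the double mutant was not called against yhp1-13A (DBF2 log2 fold change -0.29, adjusted p = 1), where 0% of genes were called. Against yox1-9A it was at -0.41 (adjusted p = 0.993), where 0.348% were called. The interaction was 0.01 for DBF2 (95% interval -0.51 to 0.52), and 0.0317% of genes were called for it. For 1 gene and 3 samples on each side, an exact permutation test reaches 0.1 at the lowest, and DBF2 gave this p against wild type in all groups except yhp1Δ.

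**Figure D2:**
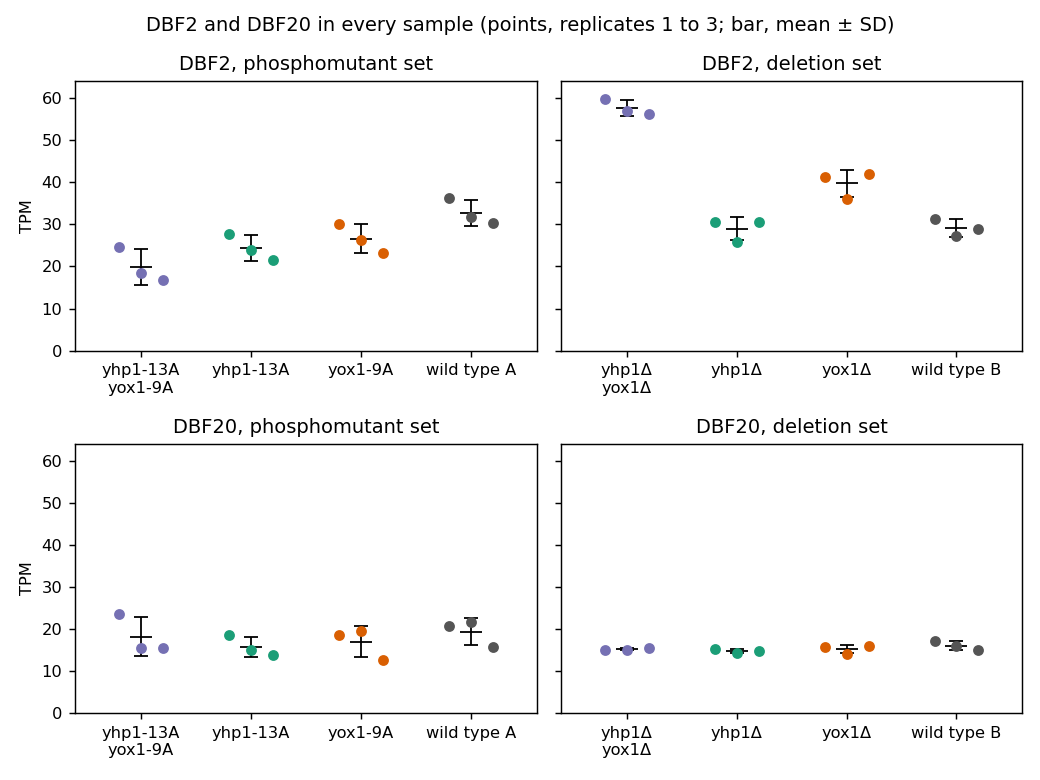
TPM of DBF2 (top) and its paralog DBF20 (bottom) in the phosphomutant (left) and deletion (right) sets, with 3 samples per group as points and the mean and SD as bars. DBF2 lies at 56.1 to 59.7 TPM in yhp1Δ yox1Δ, above all other groups, while DBF20 lies between 12.7 and 23.5 TPM in all 24 samples.

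DBF20 (chromosome XVI, 747306 to 749000) did not show the pattern of its paralog. It was at 15.2, 15.0 and 15.4 TPM in yhp1Δ yox1Δ, against 17.2, 16.1 and 15.0 TPM in wild type B. In yhp1-13A yox1-9A it was at 23.5, 15.5 and 15.6 TPM, against 20.7, 21.8 and 15.7 TPM in wild type A. The groups overlapped in both comparisons. Its log2 fold change was -0.08 in yhp1Δ yox1Δ (95% interval -0.28 to 0.13) and -0.10 in yhp1-13A yox1-9A (95% interval -0.57 to 0.37), and the second of these turned positive under some settings, up to 0.06. In the single mutants DBF20 was at 15.3, 14.4 and 14.9 TPM in yhp1Δ and at 15.7, 14.1 and 16.0 TPM in yox1Δ, and at 18.5, 15.0 and 13.8 TPM in yhp1-13A and 18.7, 19.6 and 12.7 TPM in yox1-9A, each overlapping with its wild type.

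Both paralogs have similar coding length (1719 bases for DBF2 and 1695 for DBF20) and GC content (38.7% and 37.9%), and their ratio within a sample does not depend on how that sample was scaled. The ratio of DBF2 TPM to DBF20 TPM was 3.79 ± 0.153 in yhp1Δ yox1Δ, 1.95 ± 0.138 in yhp1Δ, 2.60 ± 0.0420 in yox1Δ and 1.81 ± 0.124 in wild type B (SD, n = 3 each). In the other set it was 1.10 ± 0.0740 in the double phosphomutant, 1.55 ± 0.0495 for yhp1-13A, 1.59 ± 0.239 for yox1-9A and 1.71 ± 0.244 for wild type A (SD, n = 3 each). DBF2 was thus close to the level of its paralog in the double phosphomutant and well above it in the double deletion. DBF20 values of the phosphomutant set divided by base composition, as given below. DBF2 values overlapped across that split over all strains, but within each group they were higher in the falling samples. The ratio was 1.75 and 1.45 in the falling wild type A samples and 1.94 in the rising one. In the double phosphomutant it was 1.05 in the falling sample and 1.19 and 1.07 in the rising ones. The part of base composition in the ratio was not tested.

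On log2(TPM + 1), the mean difference DBF2 minus DBF20 was higher in yhp1Δ yox1Δ than in wild type B by 1.04, and yhp1-13A yox1-9A stood at -0.60 relative to wild type A. The double deletion samples also lay above all yhp1Δ samples (difference 0.94) and all yox1Δ samples (0.53), and yox1Δ lay above wild type B (0.51). The double phosphomutant samples lay below all yhp1-13A samples (-0.47) and all yox1-9A samples (-0.50). Each of these 7 comparisons gave an exact permutation p of 0.1, the smallest that 3 against 3 allows, and an adjusted p of 0.143 over the 10 comparisons made. The samples overlapped in the other 3, which were yhp1Δ against wild type B (0.10, exact p = 0.3), yhp1-13A against wild type A (-0.14, exact p = 0.4) and yox1-9A against wild type A (-0.10, exact p = 0.6).

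**Figure D3:**
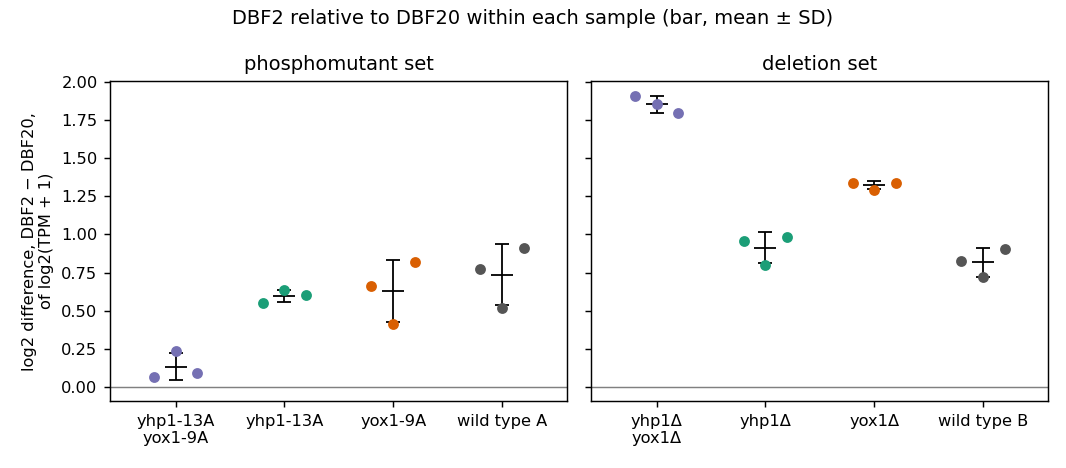
Difference of log2(TPM + 1) between DBF2 and DBF20 within each sample (points, 3 per group; bars, mean and SD), for the phosphomutant set on the left and the deletion set on the right. The yhp1-13A yox1-9A samples lie at 0.07 to 0.23, below all others of their set, and the yhp1Δ yox1Δ samples at 1.80 to 1.91, above all others of theirs.

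MOB1 (chromosome IX, 166415 to 167444, 2 coding exons), the subunit that Dbf2 needs for activity, was at 73.9, 73.9 and 77.8 TPM in yhp1Δ yox1Δ, against 89.1, 63.5 and 80.1 TPM in wild type B. It was at 77.4, 52.7 and 60.0 TPM in yhp1-13A yox1-9A, against 72.9, 68.9 and 59.2 TPM in wild type A. Groups overlapped in both sets, and the log2 fold changes were -0.03 (95% interval -0.36 to 0.30) in the double deletion and -0.09 (-0.45 to 0.27) in the double phosphomutant. In the single mutants MOB1 was at 82.0, 59.3 and 74.5 TPM in yhp1Δ and at 86.2, 66.1 and 72.1 TPM in yox1Δ, and at 69.0, 62.4 and 61.1 TPM in yhp1-13A and 59.2, 71.2 and 51.2 TPM in yox1-9A, each overlapping with its wild type. Per length, MOB1 RNA was above DBF2 RNA in all 24 samples. The margin was smallest in yhp1Δ yox1Δ, with a mean of 75.2 TPM for MOB1 and 57.5 TPM for DBF2, against 77.6 and 29.1 TPM in wild type B.

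CDC15 (chromosome I, 172211 to 175135), the kinase above Dbf2, had the smallest ratio of highest to lowest value of the 10 genes, between 9.09 and 13.8 TPM over all 24 samples. It was at 11.0, 12.9 and 13.8 TPM in yhp1Δ yox1Δ, against 13.4, 11.7 and 9.09 TPM in wild type B, with a log2 fold change of 0.14 (95% interval -0.17 to 0.45). In yhp1-13A yox1-9A it was at 9.92, 9.19 and 12.3 TPM, against 10.3, 9.80 and 11.2 TPM in wild type A. The groups overlapped in both sets. In the single mutants CDC15 was at 12.5, 13.1 and 11.3 TPM in yhp1Δ and at 11.0, 12.8 and 12.3 TPM in yox1Δ, and at 10.7, 10.5 and 11.4 TPM in yhp1-13A and 9.90, 10.3 and 10.5 TPM in yox1-9A, each overlapping with its wild type.

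TEM1 (chromosome XIII, 145139 to 145876), the GTPase, was at 55.3, 59.4 and 56.8 TPM in yhp1Δ yox1Δ, against 50.7, 35.1 and 48.4 TPM in wild type B. In the single deletions it was at 53.7, 35.3 and 51.4 TPM in yhp1Δ and at 54.5, 34.0 and 37.4 TPM in yox1Δ. The double deletion samples lay above all others of the set, the nearest being a yox1Δ sample at 54.5 TPM. Of all genes tested, 4.80% lay above wild type B in this way, 7.34% above yhp1Δ and 18.3% above yox1Δ. The log2 fold change against wild type B was 0.37 (SE 0.20, 95% interval -0.07 to 0.80, adjusted p = 0.979), and it was not called. When the samples with a positive score on the first residual component were given a term of their own, it was 0.51 (SE 0.11, adjusted p = 0.0738). Under the same term TEM1 was also called against yhp1Δ (0.45, adjusted p = 0.0619) and against yox1Δ (0.47, adjusted p = 0.0403). With that term 1.46% of all genes were called against wild type B, 13.4% against yhp1Δ and 16.1% against yox1Δ.

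The 4 lowest TEM1 values of the deletion set were wild type B replicate 2, yhp1Δ replicate 2 and yox1Δ replicates 2 and 3. The same 4 samples had the lowest CDC14 and the lowest MOB1 values of that set, and they scored 0.26 to 0.44 on the first residual component. The other samples scored 0.033 or less. Of these, yhp1Δ yox1Δ replicates 1 and 3 were just above 0, at 0.0048 and 0.033. The term by sign therefore placed them with the 4 samples of high score, although their TEM1 values were not low. The part of that component in the TEM1 result was not tested beyond the fit with its sign. In the phosphomutants TEM1 was at 47.4, 37.7 and 32.9 TPM in yhp1-13A yox1-9A, against 50.6, 55.6 and 35.9 TPM in wild type A, with overlapping groups and a log2 fold change of -0.25 (adjusted p = 0.829).

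The inhibitors of Tem1, BFA1 at a low level and BUB2 at a higher one, were not called in any comparison. BFA1 (chromosome X, 534027 to 535751) was at 5.49, 5.40 and 6.20 TPM in yhp1Δ yox1Δ, against 7.47, 6.28 and 4.39 TPM in wild type B, and lay below all yhp1Δ samples at 6.71, 7.42 and 6.65 TPM. It was at 10.2, 4.90 and 5.78 TPM in yhp1-13A yox1-9A and at 6.34, 5.17 and 6.59 TPM in yhp1-13A, against 8.14, 8.41 and 7.90 TPM in wild type A. The yhp1-13A samples all lay below wild type A (log2 fold change -0.39, adjusted p = 0.908), as did 2.82% of all genes tested. BUB2 (chromosome XIII, 386101 to 387021) was at 22.6, 25.3 and 25.6 TPM in yhp1Δ yox1Δ, against 26.9, 23.3 and 26.0 TPM in wild type B. It was at 17.5, 21.5 and 29.3 TPM in yhp1-13A yox1-9A, against 18.2, 16.1 and 20.9 TPM in wild type A, and the groups overlapped in both sets. In the single mutants BUB2 was at 25.2, 22.2 and 22.7 TPM in yhp1Δ and at 21.9, 24.9 and 24.7 TPM in yox1Δ, and at 18.9, 20.8 and 22.9 TPM in yhp1-13A and 14.9, 15.4 and 21.5 TPM in yox1-9A, each overlapping with its wild type. LTE1 (chromosome I, 101565 to 105872), which acts in favour of Tem1, was at 7.40, 6.62 and 6.99 TPM in yhp1Δ yox1Δ, against 7.79, 6.74 and 6.04 TPM in wild type B. It was at 8.91, 6.32 and 5.22 TPM in yhp1-13A yox1-9A, against 9.06, 8.72 and 6.60 TPM in wild type A. Each mutant group overlapped with its wild type, and LTE1 log2 fold changes against wild type lay between -0.24 in yhp1-13A yox1-9A and 0.17 in yhp1Δ. The double deletion lay below all yhp1Δ samples at 7.47, 7.86 and 8.07 TPM. In the double deletion 13.0% of all genes tested lay below yhp1Δ, as BFA1 and LTE1 did.

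CDC5 (chromosome XIII, 269019 to 271136), the polo kinase, was at 51.2, 47.9 and 49.8 TPM in yhp1Δ yox1Δ, against 55.7, 57.4 and 52.6 TPM in wild type B. The double deletion samples lay below all wild type B and all yhp1Δ samples, as did 4.41% and 13.0% of all genes tested. The log2 fold changes were -0.15 (95% interval -0.38 to 0.08, adjusted p = 0.979) against wild type B and -0.23 (adjusted p = 0.813) against yhp1Δ, and neither was called. In the phosphomutant set it was at 87.3, 58.9 and 48.9 TPM in yhp1-13A yox1-9A, against 74.3, 70.5 and 56.9 TPM in wild type A, with overlapping groups. In the single mutants CDC5 was at 59.4, 55.8 and 59.9 TPM in yhp1Δ and at 58.1, 45.3 and 55.2 TPM in yox1Δ, and at 76.6, 54.2 and 53.5 TPM in yhp1-13A and 80.5, 71.3 and 54.8 TPM in yox1-9A, each overlapping with its wild type.

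The base composition split showed in CDC5, BUB2, DBF20 and LTE1 of the phosphomutant set. CDC5, with the lowest GC content of the 10 genes (36.9%), was at 70.5 TPM or more in all 6 samples whose deviations fell with GC content and at 58.9 TPM or less in the other 6. BUB2, with the highest (43.6%), was at 18.9 TPM or less in the first 6 and at 20.8 TPM or more in the others. DBF20 was at 18.5 TPM or more in the first 6 and at 15.7 TPM or less in the others. LTE1 was at 7.80 TPM or more in the first 6 and at 7.53 TPM or less in the others. This division cuts across the strains. DBF2 values overlapped across the same division only when strains were pooled. Within each group, DBF2 was higher in every falling sample than in every rising one. It was at 36.2 and 31.6 against 30.4 TPM in wild type A and at 30.1 and 26.4 against 23.2 TPM in yox1-9A. In yhp1-13A it was at 27.6 against 23.8 and 21.5 TPM, and in yhp1-13A yox1-9A at 24.7 against 18.4 and 16.7 TPM. The numbers of falling and rising samples thus differed between groups.

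CDC14 (chromosome VI, 208413 to 210068), the phosphatase at the end of the pathway, was at 79.3, 75.1 and 73.2 TPM in yhp1Δ yox1Δ, against 90.9, 55.7 and 71.7 TPM in wild type B. In yhp1-13A yox1-9A it was at 74.9, 65.0 and 60.5 TPM, against 76.5, 77.1 and 61.4 TPM in wild type A. Groups overlapped in both sets. In the single mutants CDC14 was at 85.6, 57.5 and 80.4 TPM in yhp1Δ and at 90.0, 57.0 and 60.8 TPM in yox1Δ, and at 61.0, 75.3 and 62.5 TPM in yhp1-13A and 63.3, 76.3 and 55.5 TPM in yox1-9A, each overlapping with its wild type. The log2 fold change was 0.09 (95% interval -0.37 to 0.54) in the double deletion and -0.10 (-0.43 to 0.24) in the double phosphomutant.

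**Figure D4:**
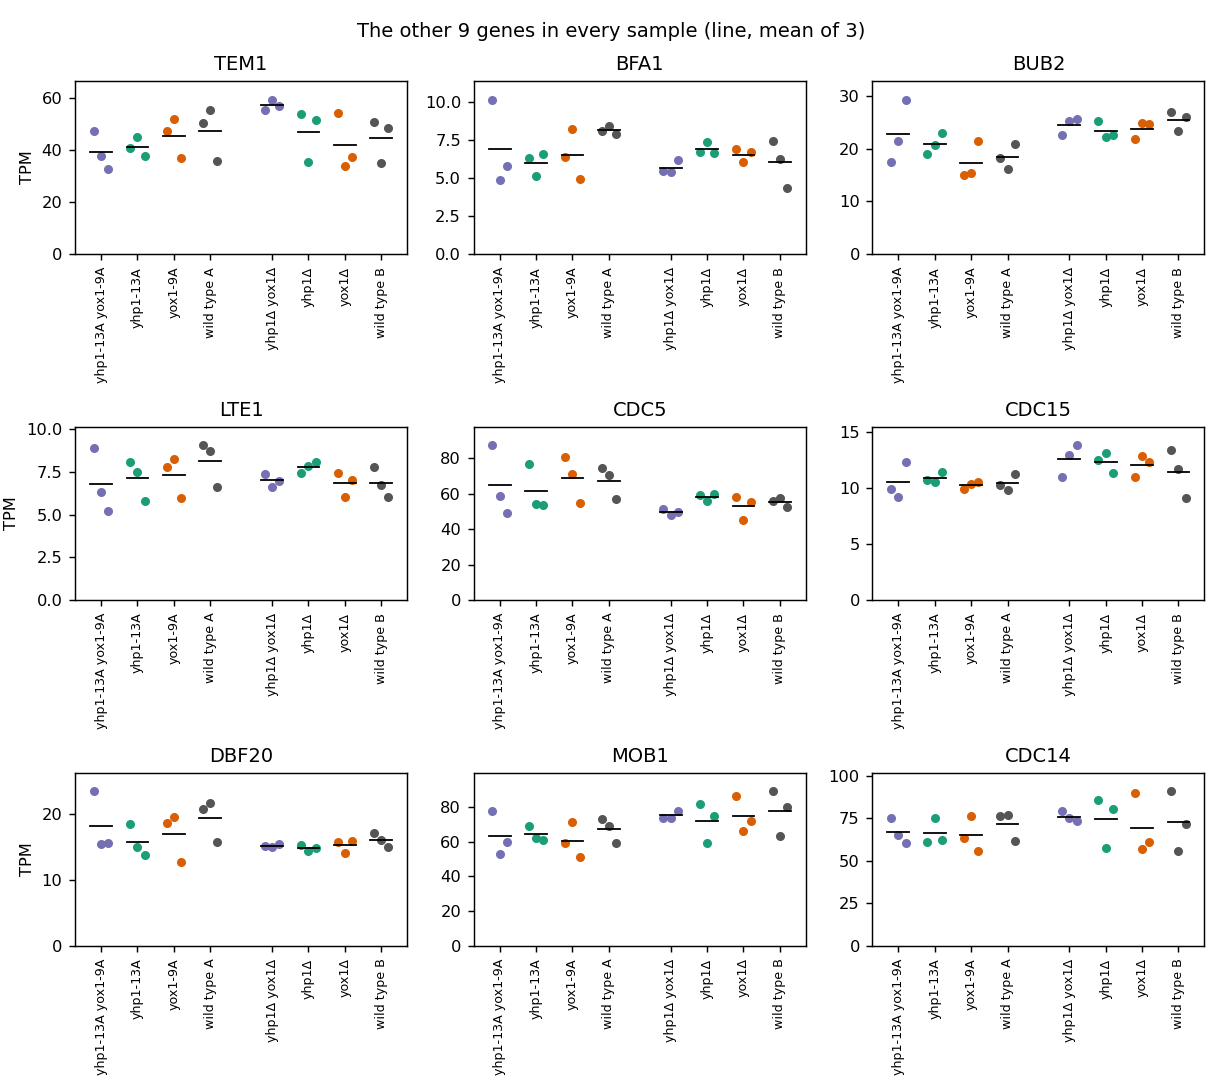
TPM in every sample (points, 3 per group; lines, group means) of the 9 genes other than DBF2, with the phosphomutant groups and wild type A on the left of each panel and the deletion groups and wild type B on the right. TEM1 in yhp1Δ yox1Δ (55.3 to 59.4 TPM) lies above the rest of its set and CDC5 (47.9 to 51.2 TPM) below wild type B and yhp1Δ, and most other groups overlap.

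Of the 10 genes, 1 was called in yhp1Δ yox1Δ and 0 in each of the other 5 mutants against wild type. At an unadjusted p below 0.05, limma gave DBF2 alone in yhp1-13A yox1-9A, yhp1-13A, yox1Δ and yhp1Δ yox1Δ, and none of the 10 in yox1-9A and yhp1Δ. Of all genes tested, 2.64% in yhp1-13A yox1-9A, 1.06% for yhp1-13A and 3.82% for yox1-9A had such a p, and 3.71% in yhp1Δ yox1Δ, 1.2% in yhp1Δ and 4.02% in yox1Δ. Limma-voom on recovered fragments also called 1 of the 10 in the double deletion and 0 in the others. Over all 6311 genes of the deletion set, limma-voom called 38 for the double deletion, 24 for yox1Δ and 9 for yhp1Δ. Over the 6316 genes of the other set, the counts were 1 for the double phosphomutant, 28 for yox1-9A and 0 for yhp1-13A. For the 9 genes other than DBF2 the 95% intervals in yhp1Δ yox1Δ reached from -0.39 to 0.80 in log2 fold change, and in yhp1-13A yox1-9A from -0.78 to 0.71. These intervals do not mark the smallest change that could be called. DBF2 was not called in yhp1-13A yox1-9A with an interval of -1.07 to -0.34, nor in yox1Δ with one of 0.21 to 0.66. With 3 samples per group, changes of that size could go uncalled. The median log2 fold change of the 10 genes was 0.00 in yhp1Δ yox1Δ, beside 0.03 for all genes tested, and -0.10 in yhp1-13A yox1-9A, beside -0.12 for all genes. None of the 9 genes other than DBF2 was called between double and single mutants or for either interaction.

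Counting genes whose samples did not overlap with wild type gave DBF2, TEM1 and CDC5 in yhp1Δ yox1Δ, where 9.21% of all genes tested did so in either direction. In yox1Δ it gave DBF2 alone (5.85% of all genes), and in yhp1Δ it gave none of the 10 (3.04%). In the phosphomutants it gave DBF2 alone in yhp1-13A yox1-9A (4.51%) and in yox1-9A (7.55%), and DBF2 and BFA1 in yhp1-13A (3.36%). Set against yhp1Δ, the double deletion gave DBF2, TEM1, CDC5, LTE1 and BFA1 (20.4% of all genes), and against yox1Δ it gave DBF2 and TEM1 (26.7%). Against yhp1Δ, the direction of the slope with GC content and the strain cannot be told apart. The double phosphomutant gave none of the 10 against either single mutant (2.03% for yhp1-13A and 7.03% for yox1-9A).

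By level per length, the 10 RNAs fell into similar orders in both wild types. In wild type B, MOB1 averaged 77.6 ± 13.0 TPM, CDC14 72.8 ± 17.6, CDC5 55.2 ± 2.45, TEM1 44.7 ± 8.42, DBF2 29.1 ± 2.03, BUB2 25.4 ± 1.87, DBF20 16.1 ± 1.11, CDC15 11.4 ± 2.17, LTE1 6.86 ± 0.882 and BFA1 6.05 ± 1.55 TPM (SD, n = 3 each). In wild type A, CDC14, CDC5 and MOB1 overlapped at the top, and TEM1 also overlapped with DBF2. In wild type B, neighbours overlapped for MOB1 with CDC14, CDC14 with CDC5 and LTE1 with BFA1. In yhp1Δ yox1Δ, DBF2 stood between MOB1 and TEM1 and overlapped with TEM1. In yhp1-13A yox1-9A it stood between BUB2 and DBF20 and overlapped with both. Over all 24 samples the highest DBF2 value was 3.58 times the lowest, and for the other 9 genes this range was 1.52-fold for CDC15 to 2.32-fold for BFA1.

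Further genes of mitotic exit were taken from 2 lists. Of 22 genes that a curated list of the study places in this process besides the 10, such as subunits of the anaphase-promoting complex and regulators of early Cdc14 release, limma called 0 in each of the 6 mutants against wild type. At an unadjusted p below 0.05 there were 3 lower in yhp1-13A yox1-9A, 3 lower in yox1-9A and 2 higher in yhp1Δ yox1Δ, and none in the other 3 mutants. Of all genes, 2.22% were lower in this way in yhp1-13A yox1-9A, 2.94% were lower in yox1-9A and 2.17% were higher in yhp1Δ yox1Δ. The median log2 fold change of the list was -0.13 in yhp1-13A yox1-9A and 0.08 in yhp1Δ yox1Δ, beside -0.12 and 0.03 for all genes. Of 8 genes acting beside or downstream of the network, 0 were called. At an unadjusted p below 0.05 this second list had 2 lower in yox1-9A and 1 higher in yox1Δ, where 2.58% of all genes were higher.

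NET1, whose product holds Cdc14 in the nucleolus, was at 32.3, 31.8 and 34.7 TPM in yhp1Δ yox1Δ, against 36.9, 31.5 and 29.2 TPM in wild type B, and at 32.9, 24.8 and 27.4 TPM in yhp1-13A yox1-9A, against 28.9, 32.8 and 28.1 TPM in wild type A. NUD1, the scaffold of the network at the spindle pole body, was at 20.1, 20.3 and 20.2 TPM in yhp1Δ yox1Δ, against 20.8, 20.1 and 18.1 TPM in wild type B. Groups overlapped in each of these comparisons. In the yox1-9A single mutant NUD1 was at 14.4, 14.0 and 13.4 TPM, below all wild type A samples at 16.7, 16.3 and 18.0 TPM, and it was not called (log2 fold change -0.27, adjusted p = 0.999). In yox1Δ it was at 28.2, 21.9 and 23.0 TPM, above all wild type B samples, and was not called either (log2 fold change 0.29, adjusted p = 0.971). Of all genes tested, 5.81% lay below wild type A in this way in yox1-9A, and 3.15% lay above wild type B in yox1Δ.

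Marker lists of cell cycle phases were read beside these values. The 10 G2/M genes summed to 313 to 335 TPM in yhp1Δ yox1Δ, against 293 to 343 TPM in wild type B, and to 253 to 397 TPM in yhp1-13A yox1-9A, against 299 to 397 TPM in wild type A. The 10 G1/S genes summed to 559 to 621 TPM in yhp1Δ yox1Δ, against 484 to 587 TPM in wild type B, and to 563 to 629 TPM in yhp1-13A yox1-9A, against 616 to 667 TPM in wild type A. The 10 M/G1 genes summed to 3483 to 3830 TPM in yhp1Δ yox1Δ, against 3192 to 4754 TPM in wild type B, and to 3191 to 4162 TPM in yhp1-13A yox1-9A, against 2925 to 4692 TPM in wild type A. These ranges overlapped in every case, and none of the 3 lists had a gene called by limma in either double mutant. At an unadjusted p below 0.05, the double deletion had 1 higher gene in the G2/M list and 1 in the M/G1 list, and the double phosphomutant had 1 lower gene in the G2/M list, beside the shares of 2.17% higher and 2.22% lower given above. The median log2 fold change of the G2/M list was 0.11 in yhp1Δ yox1Δ, and that of the G1/S list 0.17, beside 0.03 for all genes. In yhp1-13A yox1-9A the G2/M list had a median of -0.21 with all 10 genes negative, beside -0.12 for all genes. Once values were scaled by median of ratios, 6 of the 10 were negative and the list's median was -0.09. The part of phase in the DBF2 values was not tested.

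The RNAs whose pattern was most like DBF2 were found among 6274 other genes tested in both sets, by Pearson r over all 24 samples of log2(TPM + 1) centred on the mean of each set. They were HST4 (YDR191W, r = 0.89), MCM2 (YBL023C, 0.86), YNL146W (0.85), ECM4 (YKR076W, 0.84) and YNL146C-A (0.83). HST4 encodes a histone deacetylase of the sirtuin family, MCM2 a subunit of the replicative helicase and ECM4 a glutathione transferase. YNL146C-A and YNL146W are neighbours on chromosome XIV (351386 to 351580, minus strand, and 351715 to 352017, plus strand). The median r of all genes was 0.21, and 5% of genes exceeded 0.53. The points share libraries, depth and base composition, and r within groups, after group means were taken out, was 0.74 for HST4, 0.71 for MCM2 and 0.25 to 0.43 for the others.

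HST4 was at 14.9, 16.7 and 16.1 TPM in yhp1Δ yox1Δ, against 10.1, 8.26 and 7.28 TPM in wild type B, and at 9.66, 5.95 and 7.54 TPM in yhp1-13A yox1-9A, against 14.2, 13.6 and 8.30 TPM in wild type A. MCM2 was at 30.3, 29.9 and 31.5 TPM in yhp1Δ yox1Δ, against 23.2, 22.7 and 18.1 TPM in wild type B, and at 21.5, 14.6 and 15.7 TPM in yhp1-13A yox1-9A, against 27.4, 27.0 and 21.0 TPM in wild type A. Both genes lay above wild type B in all double deletion samples, as did 4.80% of all genes tested. Both overlapped between the double phosphomutant and wild type A. They were picked for likeness to DBF2 in these same samples, so this separation is not independent of that choice. Among the 9 other network genes, TEM1 was most like DBF2 (r = 0.60, rank 98 of 6274), and BUB2 was least like it (r = -0.39).

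**Figure D5:**
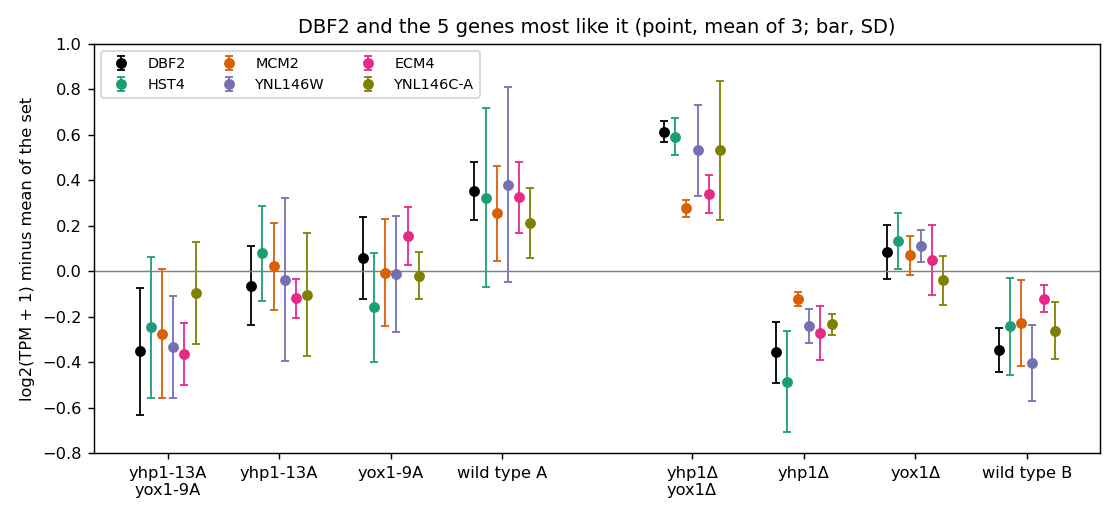
Group means of log2(TPM + 1) minus the mean of the 12 samples of the set, for DBF2 and the 5 genes with the highest r to it (points, mean of 3 samples; bars, SD), with the double mutants first and wild type last in each set. All 6 genes lie above 0 in yhp1Δ yox1Δ and wild type A and below 0 in yhp1Δ, wild type B and yhp1-13A yox1-9A, which is the pattern they were picked for.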

How the data were processed

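RNA from 24 yeast samples was sequenced. The authors aligned paired-end reads to R64 with STAR 2.5.3a and counted exon fragments of high mapping quality with featureCounts 1.5.2, per the labels and the methods. The deposited values are TPM for 7126 genes per sample, with replicates kept apart, in 1 table per set. Sample columns left unused numbered 0. The methods name poly-A purification and the labels its depletion, and the step to TPM is not given in the sources used here. MOB1 has a length of 945 bases in the tables, against 1030 bases from its first to its last coding base.

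Values were tested as log2(TPM + 1) with limma 3.58.1 in R 4.3.3. A gene entered the test when its mean over the 12 samples reached 1 TPM, which left 6316 genes in the phosphomutant and 6311 in the deletion set. The 4 groups were fitted together with a trend in eBayes. The p-values are two-sided, with Benjamini-Hochberg adjustment over every gene of the set. Comparisons were made within a set only. The procedure was tested on simulated data. TPM times length gave whole fragments for 100% of values (tolerance 0.02). Depth was 17.0 to 18.3 M fragments in the phosphomutant set and 18.1 to 18.9 M in the deletion set. The number of samples, 3 per group, limits the precision.

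The 10 genes and the lists were chosen with earlier results of these data known. The genes named are all 10, NET1, NUD1, list genes called in any mutant against wild type (none), YHP1, YOX1 and the 5 genes with the highest r to DBF2. SIC1 and SWI5 each stand in 2 lists. Same-numbered samples were checked for pairing by the correlation of their deviations from group means. All 3 pairs exceeded 0.1 for yox1-9A with wild type A (0.52 to 0.83), yhp1-13A yox1-9A with yhp1-13A (0.42 to 0.72) and yhp1Δ with wild type B (0.48 to 0.75), and a fit with the replicate number as a block changed no call among the 10 genes there. Names, positions and sequence came from RefSeq R64, to which 6048 identifiers matched, 94.4% of them with the same length. Alternatives were the pseudocount, the filter, the scaling, the threshold, the samples fitted, the trend, robust eBayes, limma-voom on recovered fragments, a replicate block, GC and residual component terms, and leaving out each sample.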

Additional observations from a re-analysis of the deposited data

How the results depend on the processing

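DBF2 kept its direction in all 12 other settings of each comparison with wild type, and its calls in yhp1Δ yox1Δ against wild type B and against yhp1Δ held in all of them and with each sample left out. In yhp1-13A yox1-9A against wild type A, DBF2 passed, and the number of the 10 genes called became 1, with a replicate block (-0.71, adjusted p = 0.0177), the GC slope (-0.61) and the residual component term (-0.61). In yox1Δ against wild type B it likewise passed, and the number became 1, after median-of-ratios scaling (0.47), with a replicate block (0.43, adjusted p = 0.0811) and with the component term (0.47). In these 2 comparisons same-numbered samples did not all deviate together (r of -0.24 to 0.56 and of -0.17 to 0.34), so the numbers do not pair them. With the component term the number called became 2 in yhp1Δ yox1Δ against wild type B, against yhp1Δ and against yox1Δ, by the addition of TEM1. Of all genes, 92 were then called against wild type B, 847 against yhp1Δ and 1017 against yox1Δ, where 40, 34 and 36 were called without it. In yhp1-13A yox1-9A against wild type A the calls among all genes numbered 29 with the block and 26 with the component term, where 1 was called without them, and in yox1Δ against wild type B 43 and 36, where 23 were. In yox1-9A against wild type A they numbered 52 with the block, 104 with the component term and 28 with limma-voom, where 18 were called. In yhp1Δ yox1Δ against yox1Δ, DBF2 (0.53) did not pass an adjusted p below 0.05, where 0 of the 10 were called. With each sample left out in turn it lay between 0.46 and 0.57, and the number called was 0 each time. DBF2 relative to DBF20 in yox1-9A against wild type A changed sign, to 0.0045, without yox1-9A replicate 2, and ranged from -0.21 to 0.0045 over the samples left out. The replicate block changed no other call. Of 1276 values over the settings, 46 changed sign, all with an unadjusted p of 0.05 or more, and 16 of these did so under median-of-ratios scaling. With a sample left out, 116 of 840 values changed sign. By Spearman's rho, 4 of the 5 genes most like DBF2 stayed among the first 5. The causes were not tested.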
